A study of Mus musculus with 12 samples.

Results

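The genes followed are 10 imprinted genes that encode proteins: Nap1l5, Ndn, Impact, Inpp5f, Ube3a, Peg3, Nnat, Grb10, Magel2 and Cdkn1c. They were given by symbol, all 10 matched a row of the gene tables, and the tables hold 43346 annotated genes. The libraries are 12 Smart-seq preparations from 1 male B6CASTF1/J mouse aged 14 months, a hybrid of Castaneus and C57Bl6. RNA of 13 Purkinje cells was homogenised as 1 pool, and each library was made from 1 cell-equivalent of RNA longer than 200 nucleotides with spike-in RNA added. The libraries are numbered 1 to 6 and 8 to 13 as in the labels, they form 1 group, and there is no treated or control group. The p-values therefore measure the spread among splits of 1 pool, which is technical, and say nothing of differences between cells or mice.

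An imprinted gene is transcribed mainly from the allele of 1 parent, and the choice is marked by DNA methylation laid down in the egg or the sperm. In brain, Peg3, Ndn, Nnat, Impact, Nap1l5, Magel2 and a short form of Inpp5f are known as paternally expressed, Cdkn1c as maternally expressed, and Ube3a as maternally expressed in neurons. Grb10 is known for a switch, with maternal expression in most tissues and paternal expression in neurons. The deposited tables sum both alleles of this hybrid, so the levels below carry no information on parental origin.

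The gene counts ran from 13694551 to 24108916 per library, and no 2 libraries held identical values. The 10 Purkinje markers, led by Pcp4 and Pcp2, summed to 24595 ± 4841 TPM (SD, n = 12, as for every mean ± SD below), and all 10 had counts in every library. TPM is a library's transcript share after reads are divided by transcript length, so it allows levels of different genes to be compared. The Bergmann glia and astrocyte markers summed to 2477 ± 749 TPM, the granule cell markers to 451 ± 222 TPM and the red blood cell markers to 744 ± 322 TPM. Transcripts used as markers of other cells were thus present, and which cells they came from was not tested. With pooled RNA, fewer cells of a type and less RNA per cell cannot be told apart.

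Of the 10 genes, 6 had counts in every library: Nap1l5, Ndn, Impact, Inpp5f, Ube3a and Peg3. Nnat had counts in 1 library, Grb10 in 5, and Magel2 and Cdkn1c in none. The 10 genes together summed to 425 ± 134 TPM, from 105 TPM in library 11 to 530 TPM in library 12.

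**Figure D1:**
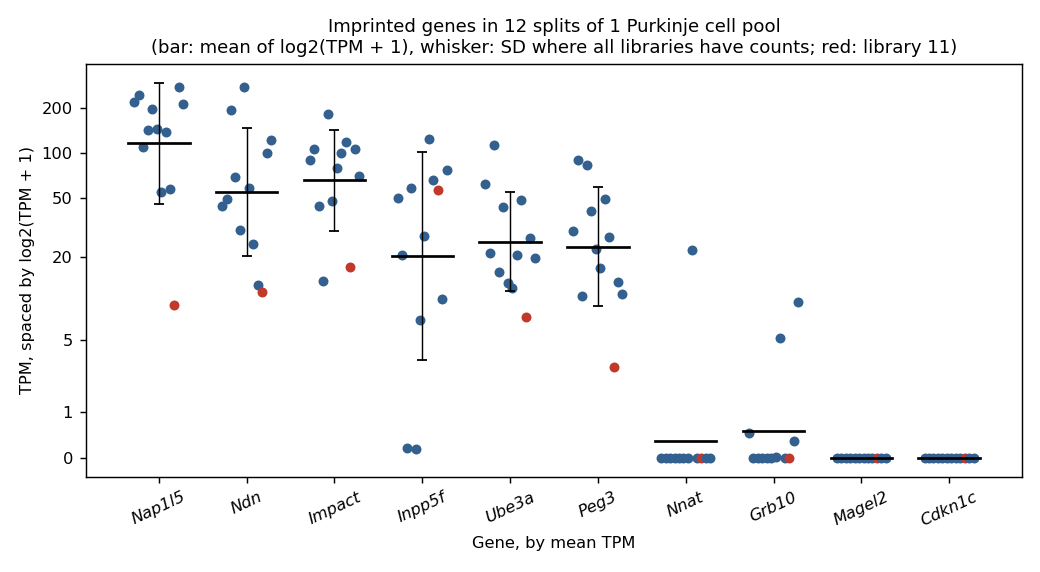
TPM of the 10 genes in each of the 12 libraries, ordered by mean TPM, on a vertical axis spaced by log2(TPM + 1). Bars are means of log2(TPM + 1), and whiskers are their SD, drawn only for genes with counts in every library. Of the genes plotted, 6 have counts in every library, Nnat rises above 0 in 1 and Grb10 in 5, and Magel2 and Cdkn1c lie at 0. Library 11, in red, is the lowest point for 4 of those 6 genes.

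A few promoters are shown because they belong to the gene of highest mean TPM, to a gene seen in 1 library, and to the alternative starts of Grb10 that the transcript tables separate. Each runs 5′ to 3′ from 250 bases before to 50 bases after a RefSeq start on GRCm38.p6, with every CG dinucleotide, the site of DNA methylation, in capitals. The Nap1l5 window is chr6:58907077-58907376 on the minus strand, the Nnat window chr2:157559828-157560127 on the plus strand, the upstream Grb10 window chr11:12037371-12037670 and the downstream Grb10 window chr11:12027922-12028221, both on the minus strand.
Nap1l5: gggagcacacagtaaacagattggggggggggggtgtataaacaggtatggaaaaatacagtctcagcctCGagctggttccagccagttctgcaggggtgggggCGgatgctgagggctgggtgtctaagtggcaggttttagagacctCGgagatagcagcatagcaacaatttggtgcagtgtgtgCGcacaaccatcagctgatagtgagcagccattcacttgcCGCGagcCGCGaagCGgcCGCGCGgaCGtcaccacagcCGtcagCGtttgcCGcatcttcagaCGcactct
Nnat: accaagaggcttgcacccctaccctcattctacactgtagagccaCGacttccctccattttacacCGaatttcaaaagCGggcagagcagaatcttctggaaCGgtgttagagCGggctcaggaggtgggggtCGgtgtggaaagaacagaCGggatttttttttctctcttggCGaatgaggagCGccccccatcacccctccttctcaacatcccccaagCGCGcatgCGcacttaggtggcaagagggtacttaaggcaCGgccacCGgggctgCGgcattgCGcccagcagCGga
Grb10 upstream: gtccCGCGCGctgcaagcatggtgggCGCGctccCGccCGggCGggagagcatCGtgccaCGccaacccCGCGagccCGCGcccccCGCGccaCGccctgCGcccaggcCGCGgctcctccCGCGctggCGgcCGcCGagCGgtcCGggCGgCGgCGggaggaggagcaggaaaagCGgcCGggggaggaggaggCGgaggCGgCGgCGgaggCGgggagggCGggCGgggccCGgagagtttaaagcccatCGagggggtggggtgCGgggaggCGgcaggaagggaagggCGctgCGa
Grb10 downstream: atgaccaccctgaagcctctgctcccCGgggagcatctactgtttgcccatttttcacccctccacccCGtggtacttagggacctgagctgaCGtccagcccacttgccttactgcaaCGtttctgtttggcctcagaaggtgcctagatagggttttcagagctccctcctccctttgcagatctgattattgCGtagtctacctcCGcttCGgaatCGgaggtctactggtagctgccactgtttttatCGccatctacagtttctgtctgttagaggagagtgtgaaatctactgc
The motif searched was CG, which reads the same on both strands. Nap1l5 and Nnat both held 17 CG, a number reached by 31.4% of 32851 RefSeq mouse promoter windows of this length. The upstream Grb10 window held 45, reached by 1.93% of windows, and the downstream window held 9, reached by 45.8%. The median window held 7. Windows were found for 8 of the 10 genes, and the others held 29 for Ube3a, 15 for the upstream start of Inpp5f, 13 for Peg3, 11 for Ndn and 10 for Magel2. Nap1l5 and Nnat, with equal CG numbers, had mean levels of 150 and 1.87 TPM.

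Nap1l5 (ENSMUSG00000055430.3; mm10 chromosome 6, 58905233 to 58907076, minus strand) had the highest mean TPM of the 10 genes. It encodes a relative of the nucleosome assembly proteins, which carry histones to and from chromatin, and it is a gene of 1 exon that lies inside an intron of Herc3 on the opposite strand. Its level was 9.18 TPM in the lowest library, 144 TPM at the median and 273 TPM in the highest, with a mean of 150 ± 81.5 TPM. Library 11 stood far below the rest, and the other 11 libraries lay between 54.9 and 273 TPM. Its coefficient of variation (CV, SD over mean) was 0.544, against a median of 0.602 for genes with a mean of 100 to 1000 TPM.

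Ndn (ENSMUSG00000033585.4; chromosome 7, 62346569 to 62350262, plus strand) followed with 82.5 ± 79.5 TPM. It encodes necdin, a neuronal growth suppressor of the MAGE family, in 1 exon. Its lowest, median and highest levels were 11.4, 54.3 and 272 TPM. Library 6 was the highest and library 3 came next with 194 TPM, so the mean lay above the median. The tables give its transcript 1652 bases and GENCODE M21 gives 3694, and the TPM rests on the former.

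Impact (ENSMUSG00000024423.5; chromosome 18, 12955852 to 12992950, plus strand) stood at 81.5 ± 47.4 TPM, with a lowest level of 13.6, a median of 85.3 and a highest level of 183 TPM. IMPACT binds GCN1 and thereby restrains the kinase GCN2, which slows translation when amino acids run short. Libraries 4 and 11 were low, and library 5 was the highest. Its CV of 0.582 was below the lower quartile, 0.978, of genes with a mean of 10 to 100 TPM, a band not matched to its level.

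Inpp5f (ENSMUSG00000042105.14; chromosome 7, 128611328 to 128696425, plus strand) had a mean of 41.6 ± 37.5 TPM. It encodes a Sac-domain phosphatase that removes a phosphate from phosphoinositides on endosomes. Its lowest, median and highest levels were 0.15, 39.2 and 124 TPM. Libraries 3 and 5 held 7 and 5 counts, while the other 10 held between 313 and 5433, so the gene was nearly lost from a pair of splits of the same pool.

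Ube3a (ENSMUSG00000025326.8; chromosome 7, 59228750 to 59311536, plus strand), the ubiquitin ligase whose maternal loss causes Angelman syndrome, stood at 33.7 ± 30.0 TPM. The lowest level was 7.50, the median 20.9 and the highest 113 TPM. Library 3 alone exceeded 100 TPM, and library 1, the next, held 62.2 TPM.

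Peg3 (ENSMUSG00000002265.11; chromosome 7, 6703892 to 6730431, minus strand), which encodes a large zinc finger protein, stood at 33.2 ± 28.2 TPM. Its lowest, median and highest levels were 2.98, 25.1 and 89.6 TPM. Libraries 2 and 4 were the high ones, with 89.6 and 83.1 TPM, and they were not the high libraries of Ube3a.

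Nnat (ENSMUSG00000067786.12; chromosome 2, 157560078 to 157562522, plus strand) encodes neuronatin, a small membrane protein of the endoplasmic reticulum. It had 437 counts and 22.4 TPM in library 9 and no count in the other 11 libraries. Library 9 also held the highest summed levels of granule cell markers (808 TPM), interneuron markers (714 TPM) and oligodendrocyte markers (378 TPM). Their part in the Nnat signal was not tested beyond the correlations given further on, where none of the 3 passed. That outcome was fixed, since a gene with counts in 1 library cannot reach a p under 0.05 in the permutation test. The lowest for r was 0.0835, with the oligodendrocyte sum. The partner gene Atp2a2, the calcium pump that neuronatin is known to act on, had 690 ± 152 TPM with counts in every library.

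Grb10 (ENSMUSG00000020176.13; chromosome 11, 11930508 to 12038683, minus strand) encodes an adaptor that damps signalling from the insulin and IGF1 receptors. It had 866 counts and 9.57 TPM in library 13, 421 counts and 5.17 TPM in library 9, and 37, 7 and 1 counts in libraries 1, 12 and 8. Library 13 also held the highest summed endothelial and mural markers, 290 TPM, against a median of 0.255 TPM over the 12 libraries, with Cldn5, Acta2, Kdr and Slco1a4 at 0 throughout and 5 of the 9 listed markers with counts. Library 9 held the next endothelial and mural level, 45.1 TPM. Library 13 was also the highest in Bergmann glia and astrocyte markers (4197 TPM) and in red blood cell markers (1551 TPM). The same library had the most gene counts per spike-in count (19.9). The part of these sums and of that measure in the Grb10 counts was not tested beyond the correlations given further on. The receptor genes Insr and Igf1r stood at 5.56 ± 5.97 and 2.14 ± 3.10 TPM.

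Magel2 (ENSMUSG00000056972.5; chromosome 7, 62377010 to 62381640, plus strand), a MAGE gene whose protein works with TRIM27 and USP7 in endosomal recycling, had no count in any library. Cdkn1c (ENSMUSG00000037664.8; chromosome 7, 143458339 to 143461050, minus strand), which encodes the cell cycle inhibitor p57, had none either. A count of 0 allows up to 3 counts, which is 0.219 CPM (reads scaled to library size only) in the library with the fewest gene counts and 0.0137 CPM over all 12 libraries. Lower levels were not detectable at this depth. Of the partners of MAGEL2, Usp7 had 32.1 ± 39.2 TPM with counts in every library and Trim27 had 13.1 ± 28.4 TPM with counts in 9.

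Levels of at least 50 counts in all 12 libraries were reached by 24.4% of the 6534 genes with a mean of at least 10 TPM. Of the 6 genes described that have such a mean, 5 reached them, all but Inpp5f. In the band of 10 to 100 TPM the share was 13.7% of 5385 genes, and Peg3, Ndn, Impact and Ube3a reached it, which is 4 of 5. Those 4 and Inpp5f had CVs from 0.582 to 0.963, all below the lower quartile of 0.978 in that band, whose median was 1.30. The band reaches down to 10 TPM, while these genes had means of 33.2 to 82.5 TPM, so neither comparison is matched for level. In the fit given below, against genes of like abundance, Inpp5f and Peg3 varied 1.36 and 1.24 times the trend. Ndn, Ube3a and Impact varied 0.70, 0.82 and 0.88 times. The median over all genes tested was 1.20 times the trend. Among 47 other imprinted protein-coding genes, 16 had a mean of at least 10 TPM and 7 had at least 50 counts in all libraries.

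**Figure D2:**
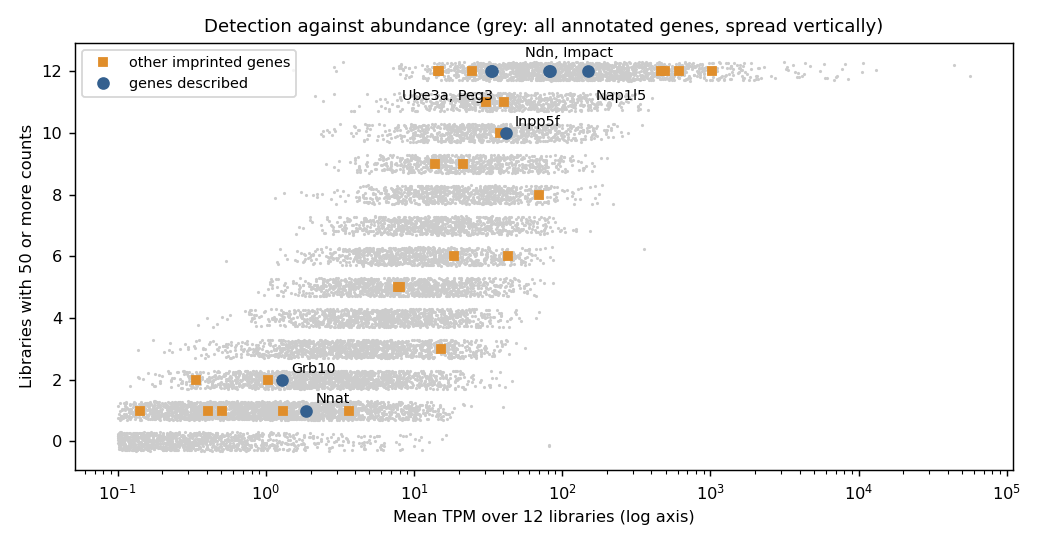
Mean TPM (log axis) against the number of libraries with 50 or more counts for all annotated genes with a mean of at least 0.1 TPM (grey, spread vertically), other imprinted genes (orange squares) and the genes described (blue). Of the latter, 5 lie in the top row, Inpp5f at 10 libraries, Grb10 at 2 and Nnat at 1.

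Whether a gene varied more between splits than genes of like abundance was tested in edgeR with a quasi-likelihood fit. Over all genes the test called 0.0144% (2 of 13899) at an adjusted p under 0.05. It called 0 of the 8 genes with counts. At an unadjusted p under 0.05, edgeR gave 0 of those 8 and 95 of all genes tested. Their quasi-dispersion was 0.70 times the trend for Ndn, the lowest, and 1.44 times for Nnat, the highest, with a median of 0.994 against 1.20 over all genes tested. The default edgeR settings and a DESeq2 dispersion test also called 0 of them. A p that misses the threshold does not show that these genes vary like others. On simulated counts the test recovered 26.5% of 200 genes given 4 times the dispersion of the trend, with 6 false calls. At 16 times it recovered 55.4% of 184, with 7 false calls. The changed genes were drawn only from genes with mean counts well above those of Nnat and Grb10 (36.4 and 111). The recovery rates therefore do not cover Nnat and Grb10.

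Library 11 was the lowest for 4 of the 6 genes found in every library, Nap1l5, Ndn, Ube3a and Peg3, an observation made after the values were seen. Of the 3189 annotated genes with a mean of at least 10 TPM and a count in every library, 12.0% had their lowest level there. The level of Impact there, 16.9 TPM, was its second lowest, and that of Inpp5f, 56.9 TPM, was above its median. Library 11 also held the lowest summed markers of granule cells (92.0 TPM), oligodendrocytes (91.3 TPM) and microglia (0 TPM). Its interneuron (224 TPM), red blood cell (549 TPM), endothelial and mural (0.09 TPM) and choroid plexus and ependyma (4.74 TPM) sums were not the lowest. The Bergmann glia and astrocyte sum there, 2707 TPM, was above its mean of 2477 TPM. The Purkinje marker sum of 23279 TPM lay within the range of the others. Library 11 was second lowest in gene counts and in gene counts per spike-in count (6.07). The part of these sums and of depth in the low levels was not tested beyond the correlations given further on. Of those, Peg3 with the granule cell sum (r = 0.66, rho = 0.52) and Nap1l5 with it (r = 0.63, rho = 0.098) had unadjusted permutation p of 0.0190 and 0.0349 for r and 0.0832 and 0.766 for rho, and neither passed after adjustment (0.508 and 0.589 for r). Without the 2 libraries of most extreme granule sum, r was 0.36 and −0.51. The other imprinted genes summed to 2917 TPM there, close to their mean of 2962 ± 688 TPM.

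The order of the levels was tested on the within-library difference of log2(TPM + 1) by an exact sign-flip test (two-sided permutation of signs), adjusted by the Benjamini-Hochberg method over 44 pairs. Of those pairs, 30 differed at an adjusted p under 0.05. Magel2 or Cdkn1c, at 0 throughout, is in 12 of the 30, where the test says only that the other gene had counts in every library, and 18 of the 28 pairs of genes with counts differed. Those 18 include every pair of Nnat or Grb10, with counts in 1 and 5 libraries, with a gene found in every library. In most libraries such a difference is the level of the other gene itself. Among the 6 genes found in every library, Nap1l5 differed from Ndn, Inpp5f, Ube3a and Peg3, and Impact from Ube3a and Peg3. No other pair of the 6 passed. Nap1l5 exceeded Ndn by 1.07 ± 1.32 (SD) on that scale, in 8 of 12 libraries, with an adjusted exact p of 0.0315. That call rested on several libraries: leaving out library 1, 2, 5, 9, 10 or 12 took the adjusted exact p above 0.05, to at most 0.0610. Nap1l5 lay above Impact by 0.81 ± 1.23 in 9 of 12 libraries, which did not pass (adjusted exact p = 0.0582). Without library 8, 10 or 11 the difference from Impact passed (adjusted exact p = 0.0444, 0.0243 and 0.0277), and in CPM it was −0.075. Nap1l5 also exceeded Ube3a by 2.14 and Peg3 by 2.25, the latter in 12 of 12 libraries (adjusted exact p = 0.00165 and 0.000895). In CPM, which is not divided by length, these differences were 0.71 and 0.35 and neither passed (adjusted exact p = 0.128 and 0.420), and that from Inpp5f, 2.46 in TPM with an adjusted exact p of 0.0222, was 2.13 and did not pass (0.0637).

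Most neighbours in the order did not differ beyond their spread. Ndn and Impact differed by −0.26 (adjusted exact p = 0.710), Inpp5f and Ube3a by −0.31 (0.787), and Ube3a and Peg3 by 0.11 (0.856). Impact exceeded Inpp5f by 1.65 ± 2.74, which did not pass (adjusted exact p = 0.0764) but did without library 4 (0.0344) or 11 (0.0403). The widest step between neighbours lay below Peg3, which exceeded Nnat by 4.24 ± 1.60 in 12 of 12 libraries (adjusted exact p = 0.000895). Nnat had counts in library 9 only, so elsewhere that step is the level of Peg3 itself. Nnat, Grb10, Magel2 and Cdkn1c could not be ordered: at most 5 libraries gave a difference between any 2 of them, and the smallest p that 5 libraries allow in this exact test is 0.0625. Impact exceeded Ube3a by 1.33 and Peg3 by 1.44 (adjusted exact p = 0.00796 and 0.0161). In CPM neither passed, with differences of 0.78 and 0.42 (adjusted exact p = 0.0702 and 0.399). On that scale Ndn fell below both Ube3a (−0.57) and Peg3 (−0.94), whose transcripts are longer, and neither difference passed there.

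Ube3a, Ndn and Magel2 lie in the domain whose human counterpart is deleted in Prader-Willi and Angelman syndromes. Snrpn, a splicing protein gene of the domain, was by far its most abundant gene with 1025 ± 381 TPM, from 478 to 1912 TPM. Snrpn exceeded Ndn by 4.11 ± 1.44 and Ube3a by 5.19 ± 1.19 on the log2(TPM + 1) scale, each in 12 of 12 libraries (adjusted exact p = 0.00101 for both). Snurf, listed at 492 ± 266 TPM, overlaps Snrpn and shares reads with it, so their division is uncertain.

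Magel2, Mkrn3 and Peg12, which follow Ndn at 30.4, 71.0 and 115 kb, had no count in any library, and neither had Atp10a at the other end of the domain. Ndn thus had counts in 12 of 12 libraries and the 3 genes that follow it in none. Snhg14, the long RNA whose extension runs antisense through Ube3a and silences the paternal allele in neurons, stood at 54.3 ± 54.1 TPM, from 0.31 to 186 TPM. Its annotated exons share 0 bases with those of Ube3a. The annotated genes 9330162G02Rik and Gm44560, on the opposite strand, share 566 and 601 of the 4911 exon bases of Ube3a and have no measured level. The strand of the libraries is not given in the sources used here. Reads of these genes or of an unannotated antisense extension therefore could not be told apart from Ube3a reads.

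**Figure D3:**
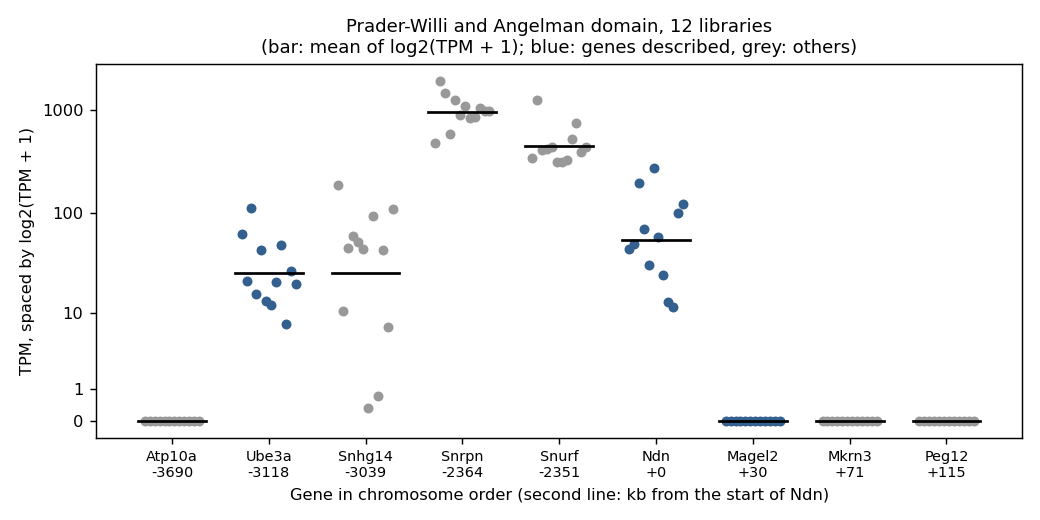
TPM of the genes of the chromosome 7 domain in each of 12 libraries, in chromosome order, with the distance in kb from the start of Ndn under each name; the vertical axis is spaced by log2(TPM + 1) and bars are means on it. Snrpn and Snurf lie highest, Ube3a, Snhg14 and Ndn between, and Magel2, Mkrn3, Peg12 and Atp10a at 0.

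Each gene was also set against relatives and neighbours named in a list, and 18 of the 27 pairs with counts differed at an adjusted p under 0.05 by the same exact sign-flip test over those 27 pairs. In 4 of the 18, 1 gene was at 0 in every library, so only the presence of the other was tested. Eif2ak4 and Usp29 had counts in 2 libraries each, and Zim1 and Nnat in 1 each. In the other libraries the differences of their pairs are likewise the level of the detected gene. In the MAGE family, Maged1 stood at 166 ± 71.8 TPM. Magel2, at 0, was lower in 12 of 12 libraries, a difference that is the level of Maged1 itself. Ndn lay 1.36 ± 2.03 below it in 10 of 12 libraries, which did not pass (adjusted exact p = 0.0583) but did without library 4 (0.0326) or 6 (0.0181). The other MAGE relatives matched had lower means than Ndn and were not tested. Their means were 26.2 TPM for Magee1, 23.1 for Mageh1, 12.5 for Maged2, 1.33 for Nsmce3 and 0 for Magee2.

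Nap1l5 exceeded the 4 nucleosome assembly relatives it was tested against, while the fifth listed, Set, stood at 157 ± 65.9 TPM and was not tested against it. The differences were 2.74 ± 2.28 from Nap1l4 and 4.65 ± 1.52 from Nap1l3, in 12 of 12 libraries each (adjusted exact p = 0.00101), and 2.24 ± 2.35 from Nap1l1 in 11 libraries (adjusted exact p = 0.0148). The difference from Nap1l2, 1.74 ± 2.59 in 8 of 12 libraries, passed at an adjusted exact p of 0.0439 but missed it when any 1 of 8 libraries (1, 2, 4, 5, 6, 8, 12 or 13) was left out, with values up to 0.0879, and in CPM (0.137). Nap1l5 also exceeded Herc3, the gene around it, by 2.93 ± 1.97 in 12 of 12 libraries (adjusted exact p = 0.00101), and the exons of the genes share 0 bases. Library 11, the lowest for Nap1l5, was the highest for Nap1l1 with 107 TPM.

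Impact stood against its partners at a wide distance. Eif2ak4, which encodes GCN2, had 0.0433 ± 0.103 TPM with counts in 2 libraries, 6.01 ± 1.12 below Impact (adjusted exact p = 0.00101), and Gcn1l1, which encodes GCN1, had 7.03 ± 10.4 TPM. The only neighbour of Impact on the list, Hrh4, had no count, and no other gene beside it was looked at.

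Ube3a exceeded the related ligases Ube3b by 3.48 ± 1.48 in 12 of 12 libraries and Ube3c by 2.57 ± 1.91 in 10 of 12 (adjusted exact p = 0.00101 and 0.00377). Other ligases of the HECT family were higher in the tables, with Nedd4 at 70.3 ± 38.7 and Huwe1 at 55.1 ± 60.4 TPM, but no test was made of them. Cdkn1c, at 0, was lower than Cdkn1b in 12 of 12 libraries and than Cdkn1a in the 8 libraries where Cdkn1a had counts, and these differences are the levels of the relatives themselves. Cdkn1a, which encodes p21, stood at 41.5 ± 60.3 TPM. Cdkn1b encodes p27, the relative of p57 known for holding mature neurons out of the cell cycle, and it stood at 56.2 ± 25.2 TPM in every library from 19.0 to 108 TPM.

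Peg3 exceeded the imprinted genes beside it, Usp29 by 4.38 ± 1.39 and Zim1 by 4.28 ± 1.51, each in 12 of 12 libraries (adjusted exact p = 0.00101). Usp29 had counts in 2 libraries and Zim1 in 1, so elsewhere the difference is the level of Peg3 itself. Nnat lay 4.16 ± 1.99 below Blcap, the gene around it, in 12 of 12 libraries (adjusted exact p = 0.00101), and their exons share 0 bases. Inpp5f exceeded Fig4 by 3.29 ± 3.52 in 10 of 12 libraries (adjusted exact p = 0.0178). It was not told apart from the other Sac-domain genes Sacm1l (0.09 ± 3.51, adjusted exact p = 0.938) and Synj1 (−0.08 ± 2.10, 0.938) or from its neighbours Bag3 (0.69 ± 3.97, 0.646) and Mcmbp (0.40 ± 2.50, 0.660). Grb10 was not told apart from Grb7, Grb14 or Cobl, with adjusted exact p from 0.374 to 0.911. Ddc had no count, and the 5 libraries with Grb10 counts cannot give an exact p below 0.0625 against it.

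**Figure D4:**
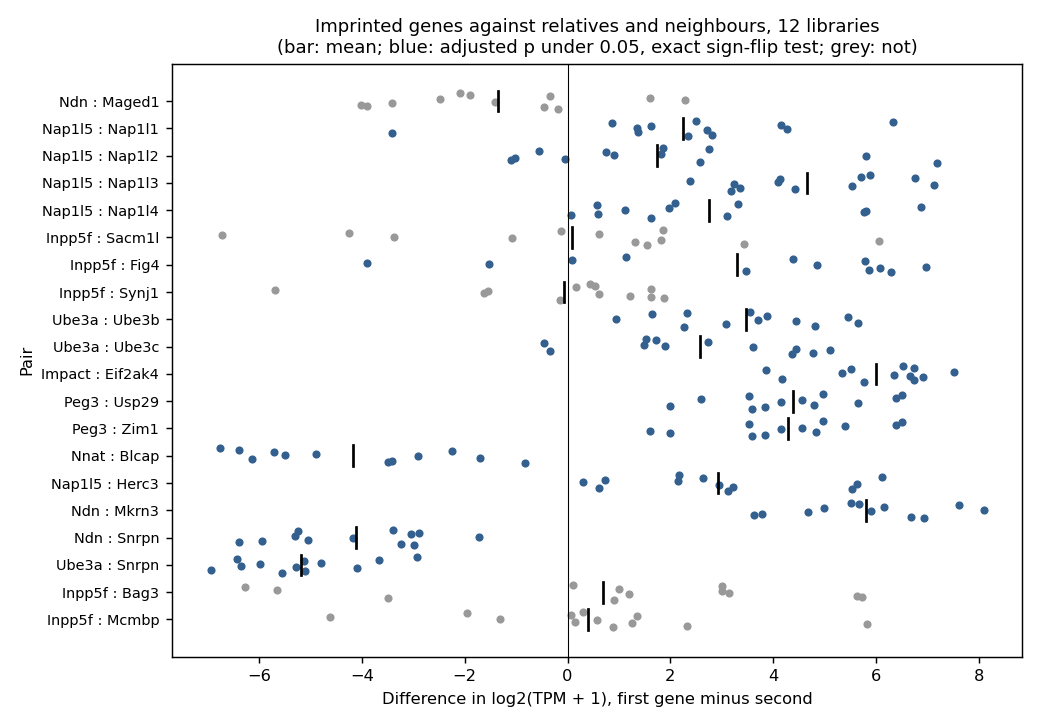
Difference in log2(TPM + 1) between an imprinted gene and a relative or neighbour, 1 point per library and a bar at the mean, for 20 pairs; blue pairs passed the exact sign-flip test and grey pairs did not. Impact, Peg3 and Ube3a lie above Eif2ak4, Usp29, Zim1 and Ube3b in all 12 libraries, while the Inpp5f pairs spread to both sides of 0.

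The transcript tables divide each gene's reads among annotated transcripts by the authors' estimate, and transcripts that share exons are separated by few reads. Ndn, Impact, Ube3a, Nap1l5 and Magel2 have 1 transcript each in the tables. The leading form of Inpp5f was Inpp5f-208, which begins 76186 bases downstream of the start of the long form Inpp5f-201. It held 79.5% of the summed Inpp5f TPM and led in 11 of 12 libraries, with a mean of 33.1 ± 36.2 TPM. Inpp5f-208 reached 50 counts in 9 libraries, and in libraries 3 and 5 it led with only 0.15 TPM. Its 2609 bases share 97.6% with Inpp5f-201 and only 62 bases are its own, while 2187 of the 4734 bases of Inpp5f-201 are absent from it. A short form of Inpp5f from an internal start is the one known to be imprinted in brain, but which annotated transcript corresponds to it was not determined here.

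Inpp5f-201 held 10.5% of the summed TPM, and library 10 stood apart. There Inpp5f-201 had 37.1 TPM and Inpp5f-208 was at 0, and the retained-intron form Inpp5f-205, 468 bases long, had 26.5 TPM. Library 13 was mixed, with 43.8 TPM for Inpp5f-208, 14.2 TPM for Inpp5f-201 and 19.3 TPM for the retained-intron form Inpp5f-206. The other 10 libraries had between 0 and 0.75 TPM of Inpp5f-201. Inpp5f-205 and Inpp5f-206 were named after their values were seen.

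Peg3-201, the full coding form of 8694 bases, held 71.8% of the summed Peg3 TPM and led in 9 of 12 libraries. The retained-intron form Peg3-204, which shares 249 bases with it and has 4567 of its own, held 19.5% and led in libraries 3, 6 and 9, with 5.45, 20.4 and 26.4 TPM against 1.90, 2.25 and 22.9 TPM for Peg3-201. Peg3-204 was at 0 in 5 libraries. Peg3-202, a short form named after its values were seen, had 25.3 TPM in library 4 and 0 elsewhere.

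**Figure D5:**
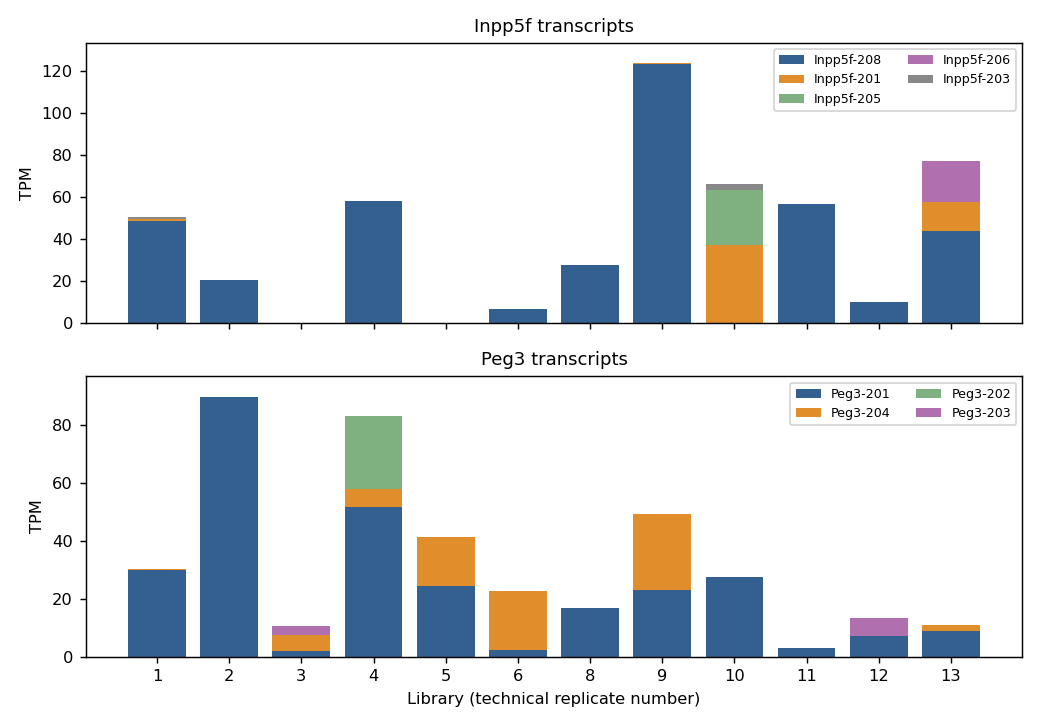
TPM of annotated Inpp5f transcripts (upper panel) and Peg3 transcripts (lower panel), stacked for each of the 12 libraries. Inpp5f-208 fills most bars except that of library 10, and Peg3-204 is the larger part of the bars of libraries 3, 6 and 9.

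Grb10-203, which begins 9430 bases downstream of Grb10-201 at the downstream promoter shown above, held 98.2% of the summed Grb10 TPM, and Grb10-201 was listed at 0 in every library. The forms share 98.5% of the bases of Grb10-203, which has 69 of its own, and Grb10 reached 50 counts in only 2 libraries, so this division rests on few reads. All Nnat reads of library 9 were given to Nnat-202, 1 of 10 annotated forms.

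Among the other imprinted genes, the 5 highest were Snrpn, Cd81 with 615 ± 174 TPM, Snurf, Gnas with 461 ± 179 TPM and Commd1 with 70.2 ± 92.7 TPM, so Nap1l5, Ndn and Impact would rank after the first 4. The lowest with any count was Zdbf2, in 1 library. Of the 47, 20 had no count in any library, against 2 of the 10 genes described and 60.9% of all annotated genes.

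The 3 genes with the highest mean TPM were set against annotated genes with a mean of at least 100 TPM. The genes with the most similar profile over the 12 libraries were listed, by Pearson's r of log2(TPM + 1). These are descriptions, since the libraries share 1 pool and differ in depth. They were Ppp1r11 (0.91), Mrps14 (0.88) and Psma2 (0.84) for Nap1l5, Sub1 (0.74), the pseudogene Gm14303 (0.74) and Txndc9 (0.73) for Ndn, and Pde9a (0.84), Mtss1 (0.81) and Rabac1 (0.80) for Impact. Relations of 8 genes with 8 sums of other cells' markers and 2 measures of depth gave 80 correlations over the 12 libraries, of which 0 passed a permutation test after Benjamini-Hochberg adjustment and 6 had an unadjusted p under 0.05. The closest, Grb10 with the endothelial and mural sum, had r = 0.88 over all libraries and −0.16 once the 2 with the most extreme sums were left out. The correlations of Nnat, with counts in 1 library, could not pass.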

How the data were processed

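RNA of 12 libraries from 1 pool was analysed. Per the file headers, the deposited tables hold expected counts, the authors' estimates in which reads shared between features are divided, and TPM, which the authors computed with spike-ins included. Per the text deposited with each sample, reads were quantified on mm10 with GENCODE M4. Neither program nor strand was given in the sources used here. Names and positions are those of GENCODE M21, also on mm10 (42462 of 43346 gene identifiers matched), and promoters from RefSeq.

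Expected counts were rounded. Genes averaging 5 or more counts entered an intercept-only quasi-likelihood fit in edgeR 4.0.16 (R 4.3.3; TMM factors, trended dispersion, classical settings chosen after the data were seen), with an upper-tail F test adjusted over all genes, tested on simulated data; DESeq2 1.42.0 was an alternative. Pairs were tested on log2(TPM + 1), a pseudocount of 1 that understates differences of low genes, with the exact sign-flip test over 4096 sign patterns (smallest unadjusted p 0.000488, scipy 1.17.1). Correlations used 100000 resamples. Gene counts per library were 13694551 to 24108916, limits cover counting error only, and reads without molecular identifiers are not independent molecules. Genes named were the 10, the genes of discussed pairs, the 5 highest and the lowest measured of the other imprinted genes, the leading markers, the 3 closest profiles and transcripts with at least 10% of a gene's TPM. The genes, lists and tests were chosen with earlier results of these data known. Alternatives were another normalization, filter, pseudocount, scale, detection minimum and each library left out.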

Additional observations from a re-analysis of the deposited data

How the results depend on the processing

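The 30 and 18 pair counts were within 1.5 times, and the count of 0 called among the genes described was the same, under the alternatives run. With each library left out, the mean of Nnat ran from 0 (without library 9) to 2.04 TPM and that of Grb10 from 0.538 (without library 13) to 1.41 TPM, while the other means moved by less than 1.5 times. The number of all genes called for variation, 2, became 13 with default edgeR settings (an alternative added after seeing the data) and 0 with DESeq2, and was 1 to 2 with each library left out (1 without library 1); the cause was not tested. In CPM, which leaves out length, 6 differences that passed no longer did (Nap1l5 from Inpp5f, Ube3a, Peg3 and Nap1l2, Impact from Ube3a and Peg3), that of Impact from Inpp5f passed, and 6 changed sign, none of the latter passing in either scale: Nap1l5 minus Impact −0.075, Ndn minus Ube3a −0.57, Ndn minus Peg3 −0.94, Ube3a minus Peg3 −0.36, Grb10 minus Grb7 0.23 and Inpp5f minus Sacm1l −0.17. With a pseudocount of 0.1, Grb10 minus Grb7 was 0.24. With each library left out in turn, differences that did not pass also crossed 0: Grb10 minus Grb7 ranged from −0.30 to 0.26, Inpp5f minus Mcmbp from −0.091 to 0.86, Inpp5f minus Peg3 from −0.57 to 0.25, Inpp5f minus Sacm1l from −0.45 to 0.71, Inpp5f minus Synj1 from −0.25 to 0.43, Inpp5f minus Ube3a from −0.60 to 0.26, Nnat minus Grb10 from −0.39 to 0.092 and Ube3a minus Peg3 from −0.18 to 0.33. A count of 0 leaves room for up to 3 counts in that library.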
